A study of Mus musculus with 4 samples.

Results

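The 10 genes described here are the Notch receptors Notch1, Notch2, Notch3 and Notch4, the ligands Jag1, Jag2, Dll1 and Dll4, and the target genes Hes1 and Hey1. They were found by their symbol among the 56980 genes of the deposited count table, and all 10 were present. The table holds 1 group of 4 libraries, each made from 100 mesenchymal stroma cells (MSCs) of the bone marrow of 1 male wild-type C57BL/6J mouse, from a colony kept inbred in-house, at 14 weeks of age. The sort gate took cells positive for CD51 and PDGFRa and negative for CD45, Ter119, CD31 and Sca1, so that blood cells, endothelial cells and Sca1+ stroma were gated out. The study asks which signals marrow stroma and macrophages can exchange, and these libraries give the stromal side in adult mice. With 1 group there is no treatment or genotype to compare, and the questions are which members were detected, at what level, in which order and with what spread between mice.

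Notch signalling passes between touching cells. A ligand of the Jagged or Delta-like family on one cell binds a Notch receptor on its neighbour, the receptor is cut by an ADAM protease and then by gamma-secretase, and the freed intracellular domain enters the nucleus, where it joins RBPJ and Mastermind proteins on target genes such as Hes1 and Hey1. Both encode basic helix-loop-helix repressors. In bone, Notch signals are known to hold back the differentiation of stromal progenitors to osteoblasts, and in the marrow Jagged and Delta-like ligands on niche cells act on blood progenitors.

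Levels are given as TPM, the count of a gene per base of its merged exons, scaled so that each library sums to 1000000. A gene was taken as expressed where its median over the 4 mice was above 1 TPM, the cutoff of the study's methods. Libraries held between 22738604 and 43545349 counts, and between 16109 and 18907 genes had a count in a library, with the lowest number in mouse 2. At least 3 counts were taken as detection, equal to between 0.0689 and 0.132 CPM (counts scaled to 1000000 per library). The genes of the antigens used for the sort followed the gate in part. Pdgfra had between 30.7 and 48.2 TPM and Itgav, which encodes CD51, between 12.9 and 18.1 TPM, while Pecam1 (CD31) had between 5 and 14 counts and Ptprc (CD45) at most 50 counts. Ly6a, which encodes Sca1, had 1, 120, 0 and 144 counts in mice 1, 2, 3 and 4, or 8.95 and 11.6 TPM in mice 2 and 4, although Sca1+ cells were gated out. The osteoblast genes Bglap, Ibsp, Sp7 and Alpl summed to between 77792 and 168024 TPM, and 7 marrow stromal genes, led by Cxcl12, to between 1067 and 4646 TPM. The libraries labelled as MSCs therefore held abundant osteoblast transcripts next to those of Cxcl12-expressing stroma. In bulk libraries, fewer cells of a type and less RNA per cell cannot be told apart.

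Of the 10 members, 5 had a median above 1 TPM, where 44.2% of all 21922 protein-coding genes and 22.9% of all genes with a length did. These were Hes1, Hey1, Jag1, Notch3 and Notch2, in this order. Hes1, Hey1 and Jag1, 3 of 10, were above 1 TPM in every mouse, where 30.1% of protein-coding genes were. At least 3 counts in every mouse were found for 5 members, against 37.5% of protein-coding genes. Dll4 alone had 0 counts in every mouse, a state shared by 29.4% of protein-coding genes. Notch4 and Jag2, 2 of 10, reached 3 counts in exactly 1 mouse, where 10.2% of protein-coding genes did. The counts of members were thus near the shares of all protein-coding genes.

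**Figure D1:**
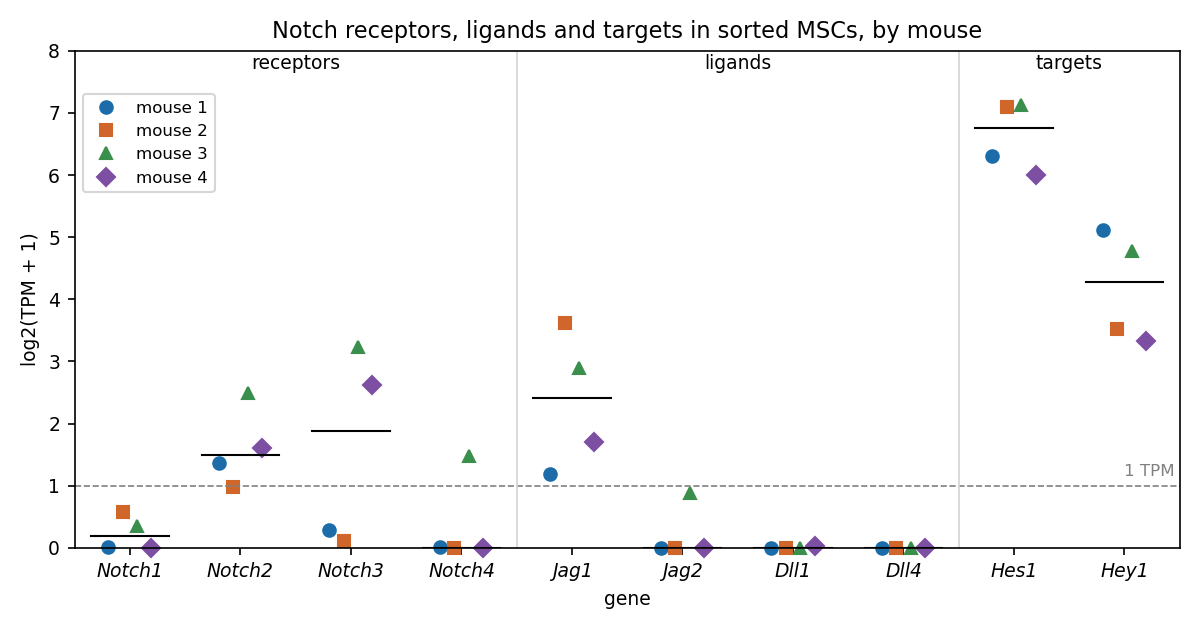
Level of each member in each mouse as log2(TPM + 1), grouped by role, with a short line at the median of the 4 mice and a dashed line at 1 TPM. Hes1, Hey1 and Jag1 lie above the dashed line in every mouse, Notch3 does so in mice 3 and 4 only, and Notch4 and Jag2 leave the base line in mouse 3.

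The promoters of 4 members are shown because they place 2 expressed receptors, Notch2 and Notch3, beside a receptor and a ligand that were not expressed by the median cutoff, Notch4 and Dll4. The sequences are those of RefSeq on GRCm38.p6, run 5′ to 3′ on the strand of the gene up to its start and lie outside the annotated gene, with each CG dinucleotide in capitals. They span chr3:98013288-98013526 on the plus strand for Notch2, chr17:32166891-32167140 on the minus strand for Notch3, chr17:34564045-34564267 on the plus strand for Notch4 and chr2:119325534-119325783 on the plus strand for Dll4.
Notch2: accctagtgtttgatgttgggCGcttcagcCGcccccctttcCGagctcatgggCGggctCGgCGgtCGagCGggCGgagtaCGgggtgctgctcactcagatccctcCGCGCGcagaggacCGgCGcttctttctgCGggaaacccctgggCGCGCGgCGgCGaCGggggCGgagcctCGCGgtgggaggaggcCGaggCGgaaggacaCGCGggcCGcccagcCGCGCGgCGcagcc
Notch3: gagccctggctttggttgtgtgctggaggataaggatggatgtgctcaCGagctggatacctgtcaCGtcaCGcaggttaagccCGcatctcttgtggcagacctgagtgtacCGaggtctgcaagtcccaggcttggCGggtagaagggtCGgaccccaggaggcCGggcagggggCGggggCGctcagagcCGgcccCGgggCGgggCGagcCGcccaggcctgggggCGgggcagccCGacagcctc
Notch4: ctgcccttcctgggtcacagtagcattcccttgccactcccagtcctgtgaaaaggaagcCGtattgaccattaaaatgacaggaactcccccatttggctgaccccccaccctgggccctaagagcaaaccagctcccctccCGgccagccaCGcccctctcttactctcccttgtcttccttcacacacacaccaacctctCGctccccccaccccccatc
Dll4: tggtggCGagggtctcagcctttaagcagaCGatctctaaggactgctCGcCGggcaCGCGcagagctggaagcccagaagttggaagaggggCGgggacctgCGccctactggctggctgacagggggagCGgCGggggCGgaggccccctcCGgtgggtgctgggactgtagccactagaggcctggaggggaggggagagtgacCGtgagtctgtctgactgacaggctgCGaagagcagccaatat
The Notch2 stretch of 239 bases held 34 CG dinucleotides and was 74.1% G or C, and the Notch3 stretch of 250 bases held 17 and was 68.8% G or C. The Notch4 stretch of 223 bases held 4 and was 59.2% G or C. The stretch of Dll4, which had no count, held 14 in 250 bases and was 65.6% G or C. Over 32851 RefSeq promoters the median was 6 CG dinucleotides per 250 bases, with quartiles of 2 and 16, and 52.4% G or C. Among the windows of 250 bases that are not printed, that of Jag1, which was expressed, held 20 CG dinucleotides. Of the members not expressed by the median cutoff, Notch1 held 16, Jag2 held 54, and the windows of Dll1 held 21 and 13. A link between CG dinucleotides and level was not tested. The core of the RBPJ binding site, TGGGAA or TTCCCA on the other strand, was searched in the 250 bases before each RefSeq start of the members. Some windows lie inside the annotated gene, with all 250 bases for Notch1, Jag2 and 1 window of Dll1. For Jag1, Notch4 and Notch2, 124, 27 and 11 bases do. RefSeq promoters were found for 8 of the 10 members, Hes1 and Hey1 having no entry, and none of their 9 windows held these letters. The same letters stood in 21.6% of all promoters of that length. The match is a description of letters only.

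The receptors are large single-pass proteins that both sense the ligand and carry the signal. Notch2 (ENSMUSG00000027878, GRCm38 chr3:98013527-98150361, plus strand, 34 exons in its longest transcript) was the only receptor near or above 1 TPM in all mice. It had 299, 116, 859 and 228 counts in mice 1, 2, 3 and 4, which correspond to 1.58, 0.967, 4.61 and 2.05 TPM. Mouse 3 was the highest and mouse 2 just below the cutoff, with a mean of 2.30 ± 1.602 TPM (SD, n = 4). The median, 1.81 TPM, lay above 59.4% of protein-coding genes. Notch2 is also the only member that the study's own ligand and receptor lists name on MSCs. Those lists were filtered on these libraries with the same cutoff, so its passing is not independent evidence. They name MSC genes only as partners of ligands or receptors that differed between embryonic and adult macrophages. A member missing from them was therefore not necessarily absent from MSCs. The exons of Notch2 share 5.02% of their bases with Gm42820 on the same strand, which had 45, 95, 103 and 1 counts of its own.

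Notch3 (ENSMUSG00000038146, chr17:32120820-32166852, minus strand, 33 exons), a receptor best known in pericytes and vascular smooth muscle, differed most between mice among the members detected in all of them. It had 31, 7, 1176 and 429 counts, or 0.218, 0.0778, 8.41 and 5.13 TPM, in mice 1 to 4. Mice 3 and 4 were high and mice 1 and 2 were below the cutoff. The mean was 3.46 ± 4.05 TPM (SD, n = 4) and the median 2.67 TPM. The call of Notch3 as expressed rested on both mice 3 and 4: its median fell to 0.218 TPM when either was left out, and its mean to 1.81 TPM without mouse 3. Antisense Gm17276 overlaps 6.03% of its exon bases and had 1, 0, 0 and 9 counts. Counting used no strand option, so reads in bases shared by genes on opposite strands cannot be told apart. No option to count a pair for more than 1 gene is stated, so pairs in shared bases may be missing from both genes.

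Notch1 (ENSMUSG00000026923, chr2:26457903-26516663, minus strand, 34 exons), the receptor that drives T cell commitment, was low. It had 1, 79, 69 and 0 counts, or 0.00399, 0.499, 0.281 and 0 TPM, and was detected in mice 2 and 3 only. The mean of 0.196 ± 0.241 TPM fell to 0.0949 TPM without mouse 2. Antisense 0610009E02Rik covers 7.504% of the exon bases of Notch1 and had 57, 12, 326 and 0 counts. Notch4 (ENSMUSG00000015468, chr17:34564268-34588503, plus strand, 30 exons), a receptor mostly of endothelial cells, had 1, 0, 248 and 0 counts, or 0.00705, 0, 1.78 and 0 TPM. It was seen in mouse 3 alone, and its 3-count floor in mouse 1 was 0.0212 TPM. Of 8 endothelial genes measured beside it, Cdh5, Kdr, Tie1, Esam and Cldn5 were at 0 counts in every mouse. The endothelial genes summed to 0 TPM in mouse 3, and the sums in mice 1, 2 and 4 were 0.0159, 1.12 and 0.880 TPM. The sums of mice 2 and 4 came almost wholly from Tek, with 58 and 42 counts.

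The receptor genes together gave 1.81, 1.54, 15.1 and 7.18 TPM in mice 1 to 4, a mean of 6.40 ± 6.34 TPM, and 3.51 TPM without mouse 3. The make-up changed along with the sum. Notch2 was the highest receptor in mice 1 and 2, with 87.3% and 62.6% of the receptor TPM, and Notch3 in mice 3 and 4, with 55.8% and 71.5%. Notch1 took 32.3% in mouse 2 and at most 1.86% elsewhere, and Notch4 took 11.8% in mouse 3. The difference within mice between Notch3 and Notch2 was -0.05 ± 1.08 on the log2(TPM + 1) scale (mean ± SD, n = 4; exact two-sided sign-flip permutation test, p = 0.875, adjusted p = 0.938 over 45 pairs). Notch3 was higher in 2 of 4 mice, and the mean log2 difference had the sign opposite to the difference of the medians in TPM. Notch2 was above Notch1 in 4 of 4 mice, by 1.37 ± 0.73 log2 units (exact permutation p = 0.125, adjusted p = 0.188). Notch3 was above Notch1 in 3 of 4 mice, by 1.32 ± 1.68 log2 units (exact permutation p = 0.375, adjusted p = 0.482), and by 0.81 log2 units without mouse 3. With 4 mice, 0.125 is the smallest p this test can give, so that no pair can pass a threshold of 0.05.

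**Figure D2:**
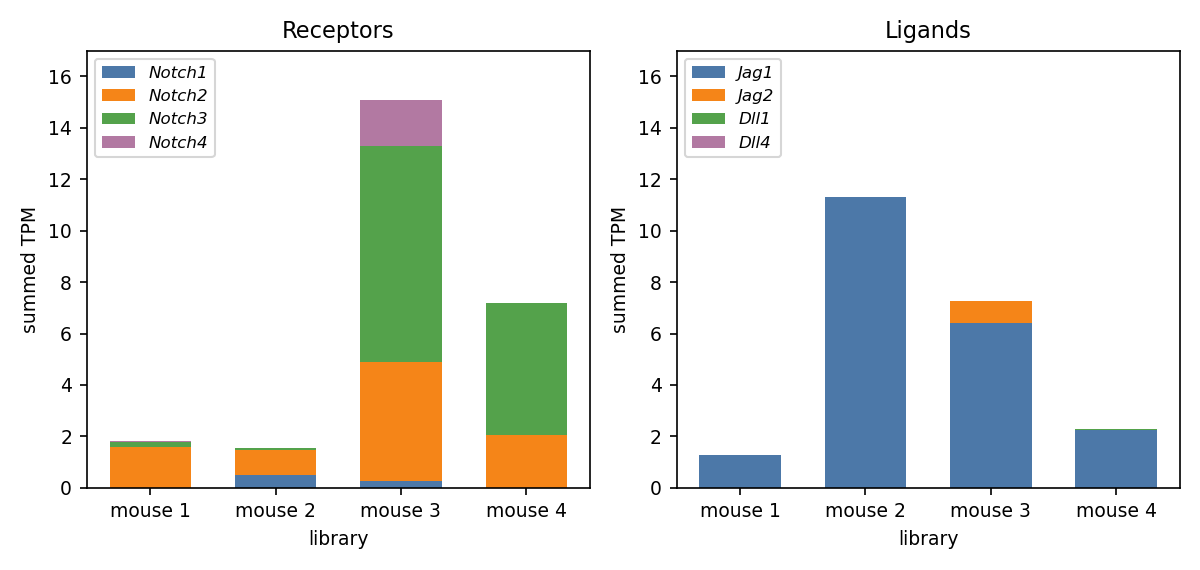
Summed TPM of the 4 receptors (left) and the 4 ligands (right) in each of the 4 libraries, with the share of each gene in colour. Receptor TPM is highest in mouse 3 at 15.1 and shifts from mostly Notch2 in mice 1 and 2 to mostly Notch3 in mice 3 and 4, while Jag1 makes up nearly all ligand TPM in every mouse.

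Among the ligands, Jag1 (ENSMUSG00000027276, chr2:137081456-137116644, minus strand, 26 exons) was the only one expressed. This ligand is known for its part in stromal support of blood stem cells and in the bile duct and vessel defects that follow its loss. It had 131, 733, 647 and 136 counts, or 1.28, 11.3, 6.43 and 2.26 TPM, in mice 1 to 4. Mice 2 and 3 were high and mice 1 and 4 low, with 8.85 times more in the highest mouse than in the lowest. The mean was 5.32 ± 4.57 TPM (SD, n = 4) and the median 4.34 TPM, above 67.9% of protein-coding genes. Without mouse 2 the mean was 3.32 TPM. Jag1 shares no exon bases with other annotated genes and has no near-identical copy, so its counts are not affected in this way.

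The other ligands were not expressed by the median cutoff, and Dll1 and Dll4 were under the limit of detection. Jag2 (ENSMUSG00000002799, chr12:112907819-112929776, minus strand), a second Jagged ligand, had 0, 0, 102 and 0 counts, so that it was seen in mouse 3 alone, at 0.848 TPM, and was not above 1 TPM in any mouse. Dll1 (ENSMUSG00000014773, chr17:15367354-15376872, minus strand), a Delta-like ligand of somites and B cell niches, had 1 count in mouse 4 and 0 in mice 1, 2 and 3, under the 3-count floor in every mouse. Of its exon bases, 20.6% are shared with antisense A930024N18Rik, whose counts were not used here. Dll4 (ENSMUSG00000027314, chr2:119325784-119335962, plus strand), the ligand of arterial and tip endothelium and of the thymus stroma, had 0 counts in every mouse. At these depths 0 counts allow up to between 0.0443 and 0.0754 TPM of Dll4, and counts from amplified cDNA make such floors cover counting error only. Against that floor, Jag1 was at least 28.9-fold higher than Dll4 in mouse 1, 162-fold in mouse 2, 143-fold in mouse 3 and 30.0-fold in mouse 4. Jag1 gave 100%, 100%, 88.3% and 99.0% of the ligand TPM in mice 1 to 4, with 11.7% from Jag2 in mouse 3 and 1.01% from the single Dll1 count in mouse 4. Jag1 was above Jag2 in 4 of 4 mice, by 2.13 ± 1.05 log2 units (exact permutation p = 0.125, adjusted p = 0.188). The ligand genes together had a mean of 5.54 ± 4.66 TPM, and 3.61 TPM without mouse 2.

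Of the target genes, Hes1 was above every receptor and ligand in each mouse, and Hey1 was above them except in mouse 2, where Jag1 was slightly higher. Hes1 (ENSMUSG00000022528, chr16:30064384-30067796, plus strand, 4 exons) had 2788, 3076, 4903 and 1321 counts, or 77.8, 136, 139 and 62.8 TPM. Mice 2 and 3 were again higher than mice 1 and 4, with a range of only 2.22-fold. The mean was 104 ± 39.3 TPM (SD, n = 4), and the median of 107 TPM placed Hes1 at rank 851 of the protein-coding genes, above 96.1% of them. Hey1 (ENSMUSG00000040289, chr3:8663359-8667256, minus strand, 5 exons) had 1930, 381, 1484 and 305 counts, or 33.6, 10.5, 26.3 and 9.04 TPM. Here mice 1 and 3 were high and mice 2 and 4 low, with a range of 3.72-fold, a mean of 19.9 ± 12.0 TPM and a median of 18.4 TPM at rank 3351. Both genes share no exon bases with another gene. Neither Hes1 nor Hey1 is a readout of Notch alone, since other signals such as BMP and TGF-beta are known to act on them. The target genes together gave 111, 146, 166 and 71.8 TPM, a mean of 124 ± 41.3 TPM. Hes1 made up 69.8%, 92.8%, 84.1% and 87.4% of this in mice 1 to 4. It was above Hey1 in 4 of 4 mice, by 2.45 ± 0.98 log2 units (exact permutation p = 0.125, adjusted p = 0.188).

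In the order by median TPM, Hes1 was followed by Hey1, Jag1, Notch3, Notch2, Notch1, Notch4, Jag2, Dll1 and Dll4. Of the 45 pairs of members, 30 had the same direction in 4 of 4 mice, and in 28 pairs the mean difference was larger than its SD over mice. Most of the 30 set an expressed member against a member under the median cutoff, so their direction was largely given by that cutoff. Neighbours in the order differed to unequal degrees. Hey1 was above Jag1 in 3 of 4 mice, by 1.83 ± 1.65 log2 units (exact permutation p = 0.25, adjusted p = 0.352), and by 1.13 log2 units without mouse 1. The next neighbours did not differ beyond their spread. Jag1 was above Notch3 in 2 of 4 mice, by 0.79 ± 1.97 log2 units (exact permutation p = 0.75, adjusted p = 0.823), and the sign turned to -0.12 without mouse 2. Notch1 and Notch4 differed by -0.13 ± 0.71 log2 units (exact permutation p = 0.75, adjusted p = 0.823), again against the order of the medians. The last places, from Notch4 to Dll4, were held by genes at or under the floor in at least 3 of 4 mice and carry no order.

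The spread between the 4 libraries, 1 per mouse, was far above the counting error of reads for each expressed member. That error leaves out the loss of molecules from 100 cells before amplification. With 1 library per mouse, such loss and differences between mice cannot be told apart. Counting alone would give a coefficient of variation (CV, the SD divided by the mean) of 5.05% for Jag1, 5.30% for Notch2, 5.09% for Notch3, 3.19% for Hey1 and 1.87% for Hes1. The measured CV was 86.0%, 69.7%, 117%, 60.7% and 37.9% in the same order. Among the 8584 genes of all kinds with a mean from 1 to 10 TPM, the median CV was 89.6%, with quartiles of 53.3% and 144%, and Notch2, Notch3 and Jag1 fell within this range. Hey1 was below the upper quartile of the 4673 genes from 10 to 100 TPM, whose quartiles were 27.2% and 65.1%. Hes1 was just above that of the 911 genes from 100 to 1000 TPM, whose quartiles were 15.5% and 36.3%. Notch1, Notch4 and Jag2, with a mean from 0.1 to 1 TPM, had CVs of 123%, 199% and 200%, in a class of 5371 genes whose median was 170%.

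**Figure D3:**
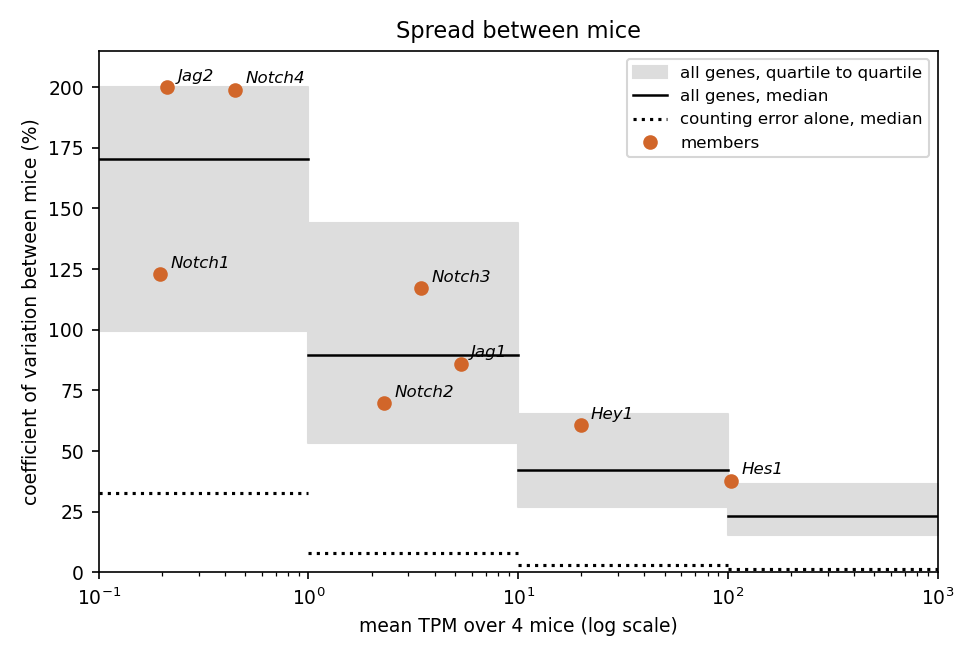
Coefficient of variation between the 4 mice in percent against the mean TPM on a log axis for the 8 members with a mean above 0.1 TPM, over the span between the quartiles (grey) and the median (line) of all genes in the same range, and the median expected from counting alone (dotted). Each member lies well above the dotted line, and Hes1, at 37.9%, just above the grey band of its range.

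Members differed in which mice were high. Jag1, Hes1 and Notch1 were higher in mice 2 and 3 than in mice 1 and 4, Notch2 and Notch3 in mice 3 and 4 than in mice 1 and 2, and Hey1 in mice 1 and 3 than in mice 2 and 4. Any 4 unequal values divide into 2 higher and 2 lower mice, and the splits were read from these same values. They held under each of the other gene lengths, denominators and scalings that were run. That adds little, as such changes shift all genes of a library, or all mice of a gene, nearly alike. Markers of cell types were set beside the members. The summed marrow stromal genes were at 23.0%, 100%, 51.4% and 26.8% of their highest mouse in mice 1 to 4, and the summed adipocyte genes Adipoq, Lpl, Cebpa and Pparg at 20.7%, 100%, 45.7% and 24.3%. Jag1, at 11.3%, 100%, 56.8% and 19.97%, had its 2 high mice in common with both sums. Hes1 also had them, at 55.9%, 97.5%, 100% and 45.1%. Both sums were led by 1 gene, Cxcl12 and Adipoq. Not all genes of either list were higher in mice 2 and 3 than in mice 1 and 4. The share of all genes with this split was not computed. Without Cxcl12 the stromal sum was 84.1, 317, 165.1 and 163.5 TPM in mice 1 to 4, and without Adipoq the adipocyte sum was 14.97, 327, 40.4 and 48.1 TPM, so that mouse 2 stayed highest but mouse 3 no longer stood apart from mouse 4. The summed osteoblast genes were highest in mouse 4 and lowest in mouse 3, a pattern carried by Bglap. Without Bglap, the other 3 genes summed to 12379, 13808, 22124 and 11294 TPM, highest in mouse 3. The part of these cell types in the levels of Jag1 and Hes1 was not tested.

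For Notch3, 7 pericyte and smooth muscle genes were set beside it. Their sum was 8.44, 31.9, 11.4 and 20.3 TPM in mice 1 to 4, with the highest value in mouse 2, where Notch3 was lowest. That value was mostly Rgs5, and without it the sum was 8.44, 2.82, 11.4 and 17.4 TPM, lowest in mouse 2 and highest in mice 3 and 4. The sum of mouse 1 was not far under that of mouse 3, whereas Notch3 was below the cutoff in mouse 1. Of the 7 genes only 1, Abcc9, was higher in mice 3 and 4 than in mice 1 and 2. The share of all genes with that split was not computed either. Acta2 and Mcam, which define smooth muscle and pericytes, were at 0 counts in every mouse. Rgs5, a pericyte gene, had 0, 1470, 0 and 138 counts, Myh11 was found in mouse 4 alone with 92 counts and Kcnj8 in mouse 3 alone with 33 counts. Abcc9, a channel subunit of pericytes, had 5.48, 2.27, 8.56 and 8.70 TPM and so shared its high mice 3 and 4 with Notch3, and Cspg4 had 2.96, 0.558, 2.08 and 7.49 TPM. Erythroid genes, mostly globins, summed to 4980, 35.04, 1708 and 358 TPM, and 6 genes of blood stem cells and lymphocytes to 0, 2.999, 6.82 and 2.98 TPM. Macrophage and neutrophil genes summed to 30.7, 19.7, 4.09 and 7.84 TPM. Chondrocyte genes summed to between 219 and 352 TPM, almost wholly from Col11a2, which had between 214 and 345 TPM. Without Col11a2 the other 3 chondrocyte genes summed to 6.87, 0.213, 12.2 and 1.25 TPM in mice 1 to 4. The blood stem cell and lymphocyte sum of 6.82 TPM was that of mouse 3, the mouse with Notch4 and Jag2 counts. It was 1.32 TPM without Ptcra. The part of these cells in the levels of Notch3, Notch4 and Jag2 was not tested.

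**Figure D4:**
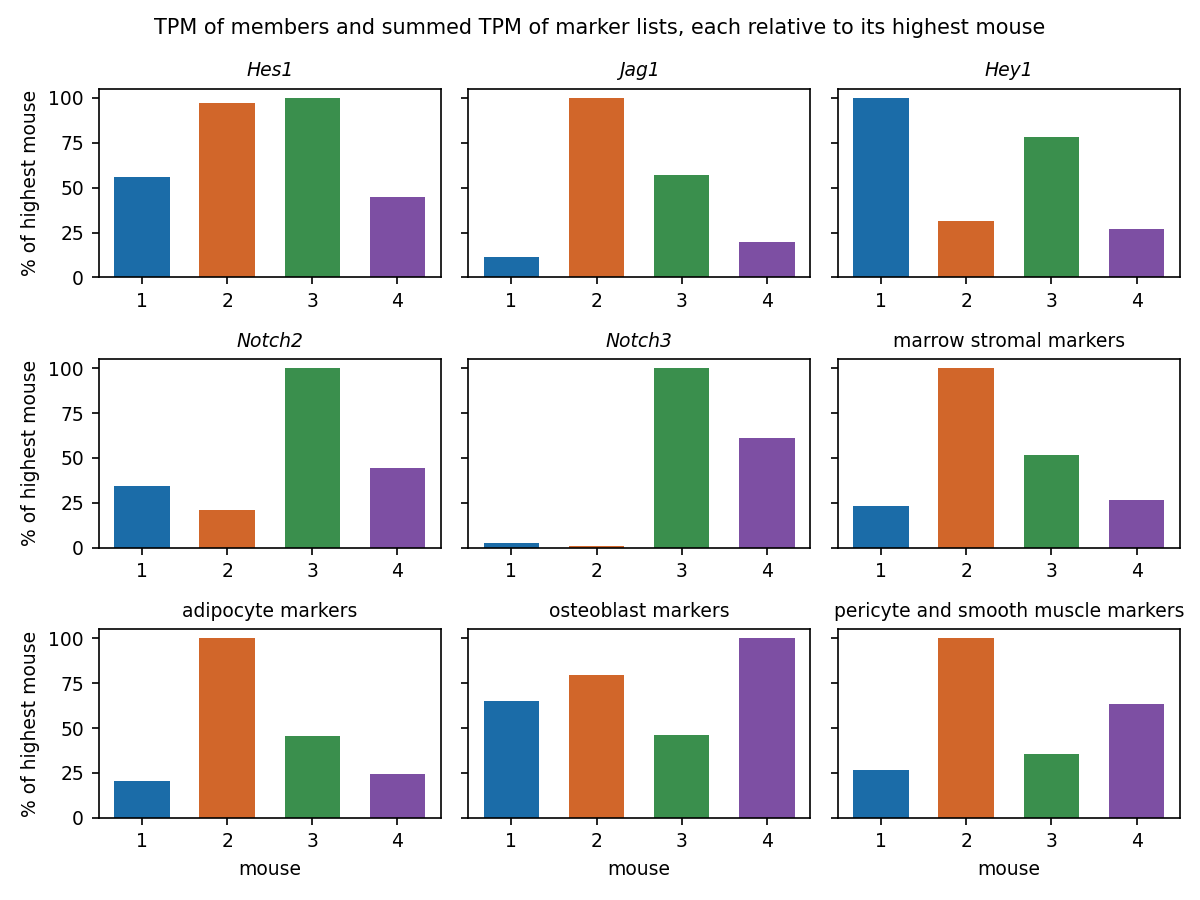
TPM of the 5 expressed members and summed TPM of 4 marker lists in each mouse, each as a percentage of its highest mouse. Jag1 and the marrow stromal and adipocyte markers are highest in mouse 2 and second in mouse 3, while Notch2 and Notch3 are highest in mouse 3 and the summed pericyte and smooth muscle markers in mouse 2, through Rgs5 alone.

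Around the members, 62 other genes of the pathway were measured in 6 lists. Of these, 46 had a median above 1 TPM and 32 were above 1 TPM in every mouse, with a median of 4.32 TPM over the lists, against the 44.2% and 30.1% of protein-coding genes. Most genes that process the receptors were expressed. All 9 genes of receptor cleavage had a median above 1 TPM, and 7 were above it in every mouse. Among the highest were the gamma-secretase subunits Psenen, with a median of 124.0 TPM, and Ncstn, with 47.8 TPM. Of 5 genes of receptor glycosylation, 3 were above 1 TPM in every mouse. Poglut1, which adds O-glucose to the receptor, had a median of 30.7 TPM, Pofut1, which adds O-fucose, 2.08 TPM, and Rfng, a Fringe that extends O-fucose, 21.1 TPM. Rfng had 49.0 and 33.9 TPM in mice 1 and 3 and 7.73 and 8.40 TPM in mice 2 and 4, so that its high mice were those of Hey1. This split is not particular to Rfng. Hdac1, Hes6, the erythroid sum and the total counts of the libraries were also higher in mice 1 and 3 than in mice 2 and 4.

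Endocytosis of ligand and receptor was covered by 13 genes, of which 11 had a median above 1 TPM and 6 were above it in every mouse. Nedd4 and Itch, ubiquitin ligases that act on many proteins, had medians of 116 and 12.5 TPM, and Dtx4, a Deltex ligase, 24.2 TPM. In the nuclear complex with its corepressors, 15 of 16 genes had a median above 1 TPM and 9 were above it in every mouse. These counts, and those over all lists, include Kyat1, an aminotransferase of kynurenine with no established part in the complex, which had 12.1, 0, 6.63 and 1.89 TPM. The highest genes of the list were the general factors Hdac1, a histone deacetylase, with 48.9 TPM, Cir1, a corepressor that binds RBPJ, with 22.9 TPM and Ncor1 with 18.4 TPM. Rbpj, the DNA-binding partner of the receptor, named here after its values were seen, had 2.97, 2.03, 3.59 and 1.91 TPM and stayed above the cutoff in every mouse.

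The 4 other ligands were not expressed. Dll3 and Dlk2 had 0 counts in every mouse, and Dlk1 and Dner had 4 and 7 counts in mouse 4 alone. Of 15 other genes listed as targets, 8 had a median above 1 TPM and 7 were above it in every mouse. The list includes Hes2, Hes3 and Hes6, which are Hes family members but not established Notch targets, and Hes6 is in both counts. The highest of the list were Cdkn1a, an inhibitor of the cell cycle, with 349 TPM, Myc with 142 TPM and Hes6 with 53.9 TPM. Cdkn1a and Myc are also set by other signals. Hes6, a Hes family member that counteracts Hes1, had 112, 39.0, 68.8 and 4.23 TPM. Hes2, Hes3, Hes5 and Nrarp, of which Hes5 and Nrarp are direct targets in many tissues, had 0 counts in every mouse. Heyl and Hey2, relatives of Hey1 that were also named after their values were seen, differed. Heyl had 6.15, 10.6, 13.5 and 4.49 TPM, whereas Hey2 had 0, 404, 125 and 0 counts, so that both were higher in mice 2 and 3 than in mice 1 and 4.

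**Figure D5:**
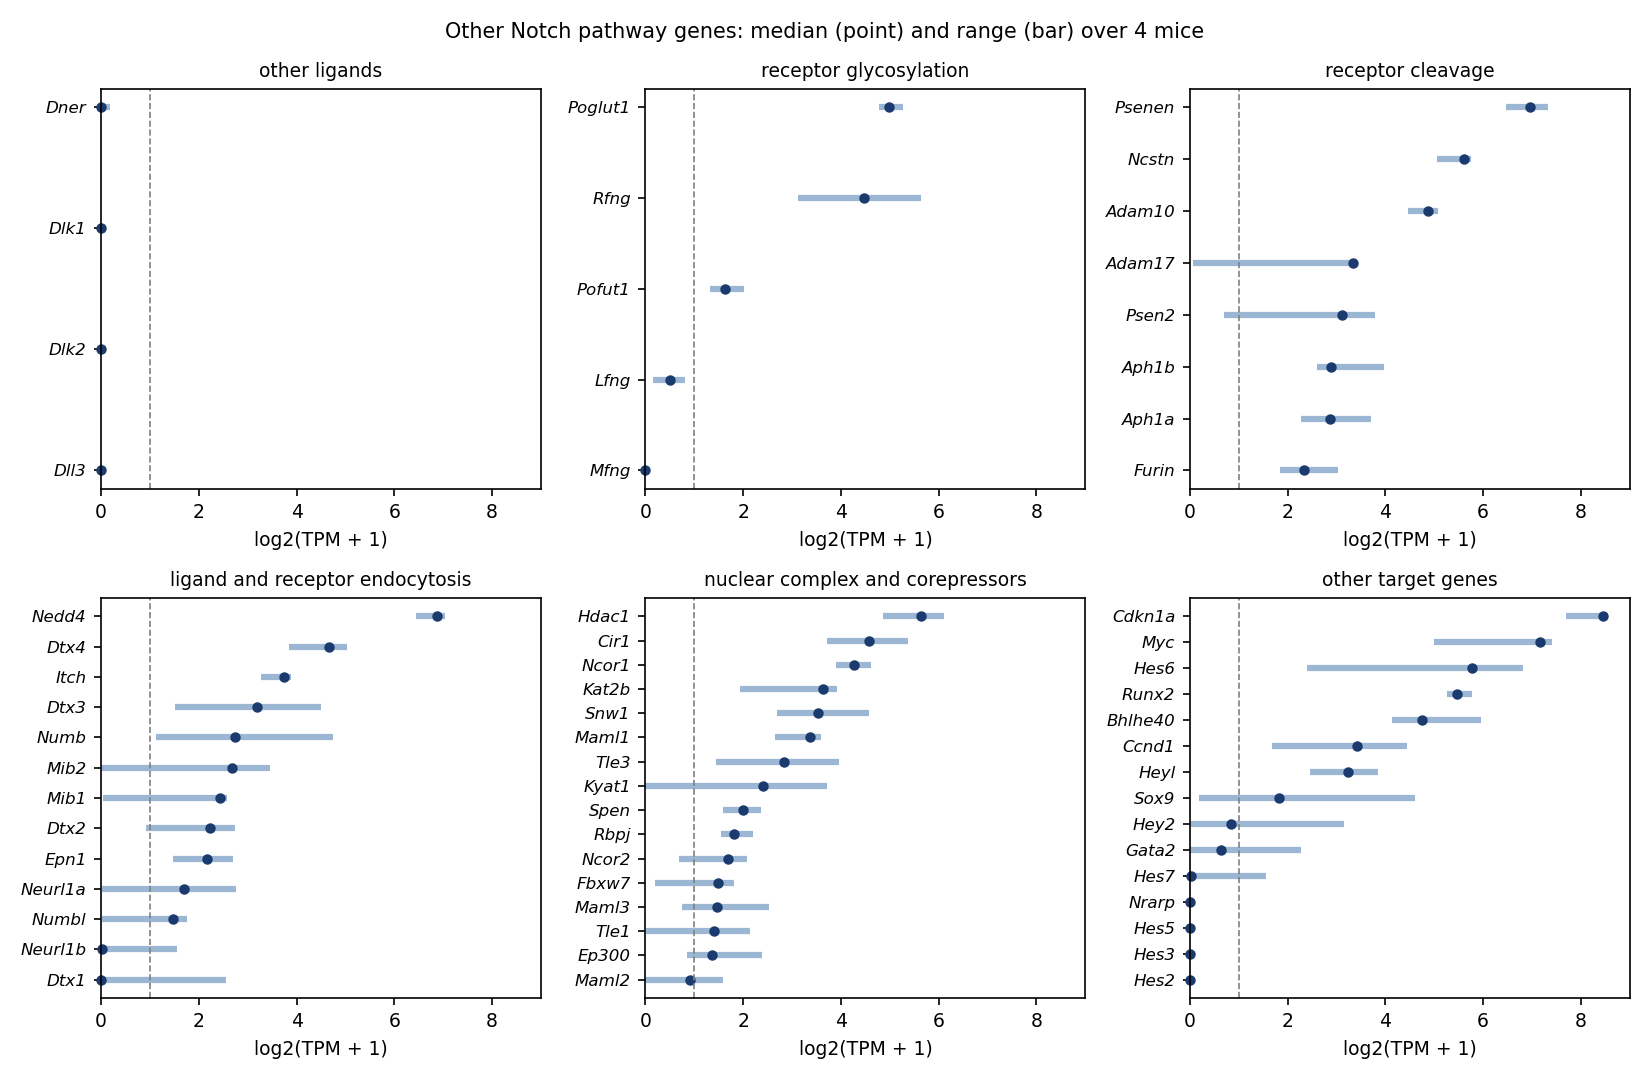
Median (point) and range over the 4 mice (bar) of log2(TPM + 1) for other genes of the pathway in 6 lists, with a dashed line at 1 TPM. The receptor cleavage genes shown all have their median above the line, the other ligands none, and 4 of the 15 genes listed as other targets stay at 0.

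The protein-coding genes whose level was most like that of 3 members were searched among 21921 genes, by the largest absolute difference in log2(TPM + 1) over the 4 mice. Closest to Hes1 were Shisa5, which differed by at most 0.10, and Clic1, by at most 0.17. Closest to Jag1 were Kat6a, by at most 0.26, and Ube2q1, by at most 0.32. Closest to Notch2 were Rps10, by at most 0.26, and Sun2, by at most 0.30. Rps10, a ribosomal protein gene, has near-identical processed copies in the genome, so that its count of uniquely mapped reads is uncertain. The measure uses level and pattern together over only 4 mice.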

How the data were processed

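RNA-seq libraries of 100 sorted MSCs from each of 4 mice were used. The authors made oligo-dT primed, PCR-amplified cDNA by template switching and tagmented it. Reads were then mapped by the authors to GRCm39 (STAR 2.7.10), who counted uniquely mapped pairs on exons of Ensembl genes with featureCounts of Subread 1.6.5, without a stated strand option, and deposited raw counts per gene. Each mouse is 1 library, and all sample columns were used.

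From the counts and the merged exon length of each gene, TPM was calculated (Python 3.11.15, pandas 2.3.3, numpy 2.4.6, scipy 1.17.1). GENCODE M21 on GRCm38 gave lengths and positions. The counts use a later build, so TPM is off where exons changed, and positions were not converted. Of 56980 genes, 52125 have a length, covering 96.1% to 98.2% of the counts of a library, and 4855 were left out. The floor of 3 counts covers counting error only, since PCR copies are not independent molecules. Pairs of members were compared by their difference in log2(TPM + 1), with a pseudocount of 1, within each mouse, by an exact permutation test (sign flips, two-sided), and p-values were adjusted over 45 pairs by the Benjamini-Hochberg method. Mice are the replicates, 1 group. Copies were searched with BLAST 2.17.0 at 95% identity over 100 bases, and scaling factors were taken from edgeR 4.0.16 and DESeq2 1.42.0 in R 4.3.3, as alternatives only. The code was run on simulated counts with the same level in every mouse and counting error alone. There, 50804 of 50855 genes clear of the cutoff were placed on the right side, and 200 of 200 raised genes were found. Since the real libraries spread far more, this checks the code only and not the calls made on them.

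The text names all members, up to 3 genes of each list with the highest median TPM and those at 0 counts in every mouse, the 2 protein-coding genes most like Notch2, Jag1 and Hes1, and markers on which a result turns. The values of 1 gene of the lists are not reported here, although the counts of the lists include it. The members and lists were chosen with earlier results of these data known. Alternatives were other lengths, denominators, scalings, cutoffs, summaries and pseudocounts, a count minimum of 10 and leaving out each mouse, plus a median length for genes without one and marker sums without their leading gene, both added after seeing the data.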

Additional observations from a re-analysis of the deposited data

Results flagged for a closer look

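Of 14 values compared over the 4 mice, 4 had 1 mouse far from the other three. Chance would give about 0.7 over 14 independent values from a normal distribution, which these are not. The summed receptors, ligands and targets repeat the values of the members. The figure also does not apply to the genes with 0 or 1 count in the other mice (Notch4, Jag2 and Dll1). Their gap is near the whole range by construction. The measure is the gap between the extreme mouse and the closest of the rest, divided by the range over all mice. It was 0.996 for Notch4 TPM, with mouse 3 the highest at 248 counts against 1, 0 and 0 in mice 1, 2 and 4. It was 1 for Jag2 TPM, with 102 counts in mouse 3 and 0 in the others, and 1 for Dll1 TPM, which rests on 1 count in mouse 4. The number of genes with a count gave 0.92, with mouse 2 the lowest at 16109, where the others had between 18683 and 18907. Mouse 2 was also the mouse with the highest Jag1, at 11.3 TPM, and the lowest Notch2 and Notch3. Without it, Jag1 had a mean of 3.32 TPM, Notch2 2.74 TPM and Notch3 4.59 TPM.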

How the results depend on the processing

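With 4 mice and 1 group, no difference between members can pass a threshold of 0.05, and at these depths members with fewer than 3 counts in a library are not detected there. No paired analysis was possible because the labels give 1 group only, and differences were already taken within each mouse.

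Leaving out each mouse in turn gave 4 to 5 members past the cutoff, the 4 being without mouse 3 and without mouse 4, where Notch3 fell below it, and 44 to 47 pathway genes against 46. Pairs with the same direction in every mouse were 30 to 32, members at the same place in the order 5 to 7 of 10 (6 without mouse 2 and 5 without mouse 3), and the median CV of the 5 expressed members 59.5% to 79.1% against 69.7%. Summed receptors were 3.51 to 8.02 TPM, ligands 3.61 to 6.95 TPM and targets 110 to 141 TPM. Notch3 minus Notch2 ran from -0.40 to 0.30 log2 units, with 0.30 without mouse 1 and 0.22 without mouse 2, and Jag1 minus Notch3 from -0.12 to 1.36, with -0.12 without mouse 2. The cause of these turns was not tested. Hes1 minus Hey1, Hey1 minus Jag1, Jag1 minus Jag2, Notch2 minus Notch1 and Notch3 minus Notch1 kept their direction under every alternative run on them.

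As CPM, with no length, summed receptors were 24.8 and ligands 13.7, another unit by construction. Without mitochondrial genes and the 10 highest genes in the denominator, summed targets were 205 TPM, as the smaller denominator raised the median of expressed genes by 0.61 to 0.89 log2 units. Above 1 TPM in every mouse, 3 members passed, and 2 with a cutoff of 5 TPM, where 30 pathway genes did. With at least 10 counts in every mouse, 4 members and 6 pairs were left, of which 4 kept 1 direction. Scaling by TMM, DESeq2 size factors or a common upper quartile left 5 members past the cutoff, all 10 at the same place and 30 pairs, while the upper quartile moved the median of expressed genes by -0.25 in mouse 3 and 0.22 in mouse 4.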
